A study of Ovis aries with 95 samples.

Results

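The brainstem of the fetal sheep was compared between 130 and 145 d of gestation, the last stretch before birth. All 8 arrays labelled as brainstem at these ages were taken, 4 per age, out of 95 arrays of the whole series, and every gene probe on them was examined. Each array held Cy3-labeled RNA of 1 whole dissected brainstem, so that a value is a level in that sample and not a ratio to a reference. The fetuses were untreated sheep (Ovis aries) of no stated strain, and per the study's methods their mothers showed no sign of labour. The methods place collection of the older group slightly earlier than the labelled 145 d, and state that each age group included 1 set of twins. The labels do not mark the twins. The p-values of this comparison measure the spread between arrays of the same age, over all 24 brainstem arrays. That spread may be smaller than the one between unrelated fetuses.

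In late gestation the brainstem already holds the neurons that will drive breathing, suckling and cardiovascular reflexes at birth. Glia mature in this period, with astrocytes taking up the glutamate that neurons release and oligodendrocytes laying down myelin, while division of precursor cells slows. Fetal plasma cortisol rises before birth in the sheep, and it acts through the glucocorticoid receptor and the mineralocorticoid receptor.

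Levels are normalized log2 intensities, on which a difference of 1 is a doubling, and differences are 145 d minus 130 d. Of 12771 genes tested, 161 differed between the ages at a Benjamini-Hochberg adjusted p under 0.05 in limma, which was 1.26% of them. Of these, 63 were higher at 145 d (0.493%) and 98 were lower (0.767%). The test takes its spread from all 24 brainstem arrays, and 1 of them, replicate 4 of the lambs 1 d after birth, had a dim central area. In its centre the median signal was 0.43 times that of the rest, against 1.14 to 1.21 on the 8 arrays compared here. Without that array 782 genes passed (6.12%), 302 higher (2.36%) and 480 lower (3.76%), and all 161 were among them. Both adjusted p-values are therefore given below, and a gene is said to have risen or fallen where it passed with all 24 arrays unless stated otherwise. Scaling of the processed signal by percentile 75 in place of quantile normalization gave 158 higher and 395 lower genes. At an unadjusted p under 0.05, 1821 genes differed (14.3%), and the 2 ages did not overlap for 1885 genes (14.8%).

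Across the 12771 genes the median difference was 0.00087, with 6418 genes higher and 6353 lower at 145 d. The median size of the 161 differences was 0.73, and they ranged from 0.26 to 1.62. The largest rise (1.62) and the largest fall (-1.39) belonged to probes without a symbol. Another 3 such genes, all higher at 145 d, were not well above background on any 130 d array, and set against the background there they were at least 1.15-fold to at least 1.32-fold higher. Most of these genes carry no symbol here, as 13 of the 161 had one, which was 1.47% of the 885 genes with a symbol. Without the dim newborn array 48 genes with a symbol passed, or 5.42%. Another 3 genes that passed are known from the descriptions in the array files, and they are given below by the file's name. Of these 16 genes, EAAT2, SLC16A1, AKT1 and the mineralocorticoid receptor passed whichever of the 8 arrays was left out. CDK4 passed in 6 of those 8 fits, ACTG1 in 5, LOC443008 in 3, PABPC1 in 2, and GRIA2, GRM5, CCNA2 and CDK1 in 1 each. DERL1, CFL1, KDR and the tie-2 receptor passed in none of them.

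The 60-base probes of the genes that the comparison turns on show what was hybridized. They are copied from the array files, 5′ to 3′, and capitals mark the bases that 2 overlapping probes of a gene share. EAAT2 (SLC1A2) is the main glutamate transporter of astrocytes, and a separate probe was filed under its older name GLT-1. GRIA2 and GRM5 are glutamate receptors, SLC16A1 carries lactate and ketone bodies, AKT1 is a growth factor signalling kinase, and CDK4, CCNA2 and CDK1 drive the cell cycle.
EAAT2 probe 1: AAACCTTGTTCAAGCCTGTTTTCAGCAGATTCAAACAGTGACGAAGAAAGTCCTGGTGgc
EAAT2 probe 2: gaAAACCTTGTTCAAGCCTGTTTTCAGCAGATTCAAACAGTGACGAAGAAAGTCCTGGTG
GLT-1 probe: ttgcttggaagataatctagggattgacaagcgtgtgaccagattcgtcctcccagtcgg
GRIA2 probe: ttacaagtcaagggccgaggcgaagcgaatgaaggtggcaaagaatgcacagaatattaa
GRM5 probe 1: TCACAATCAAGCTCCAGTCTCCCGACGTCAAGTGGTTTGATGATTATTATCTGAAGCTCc
GRM5 probe 2: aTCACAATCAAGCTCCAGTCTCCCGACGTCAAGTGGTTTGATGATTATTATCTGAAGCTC
SLC16A1 probe 1: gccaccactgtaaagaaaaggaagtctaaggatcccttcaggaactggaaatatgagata
SLC16A1 probe 2: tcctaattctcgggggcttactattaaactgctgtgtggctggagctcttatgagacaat
AKT1 probe: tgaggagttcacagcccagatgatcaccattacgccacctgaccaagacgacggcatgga
CDK4 probe: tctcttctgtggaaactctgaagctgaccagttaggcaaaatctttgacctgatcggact
CCNA2 probe: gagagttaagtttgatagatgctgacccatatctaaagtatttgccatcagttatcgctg
CDK1 probe: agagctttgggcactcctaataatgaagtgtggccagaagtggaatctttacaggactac

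The probes of EAAT2 share 58 bases and those of GRM5 share 59, so that each pair reads the same stretch of the transcript and is not 2 independent readings. The probes of SLC16A1 share none.

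The labels were checked against markers. HOXA5, a hindbrain patterning gene, lay between 9.02 and 9.60 at 130 d and between 8.61 and 9.69 at 145 d, while in cortex its levels were 6.28 to 6.43 and 6.34 to 6.48 and no array was well above background. HOXA4 lay between 7.67 and 7.95 and between 7.41 and 7.75 in brainstem, against 6.46 to 6.50 and 6.44 to 6.61 in cortex. The hindbrain genes thus stood well apart from cortex at both ages. NEUROD1, taken as a forebrain gene that should be low, lay between 8.22 and 8.64 and between 7.30 and 8.64 in brainstem. It was well above background on every one of those arrays, against levels of 10.56 to 11.45 and 10.67 to 11.02 in cortex. Before normalization every 145 d array was dimmer than every 130 d array, with median spot signals of 162.6 to 203.6 against 203.7 to 241.4, and 74.8 to 83.6% against 76.8 to 83.2% of spots were well above background. The part of this brightness in the differences below was not tested. Correlations between arrays across genes were 0.9885 to 0.9917 within 130 d, 0.9887 to 0.9932 within 145 d, and 0.9794 to 0.9905 between the ages. The arrays lay on 3 slides with both ages on each. All 161 genes kept 1 direction within each slide, but for the 154 whose ages did not overlap this was fixed in advance. No spot was saturated.

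A group of 3 genes of glutamate handling rose. EAAT2 clears glutamate from the synapse, and its levels were 7.71, 7.64, 7.58 and 7.56 at 130 d and 8.53, 8.13, 8.69 and 8.41 at 145 d. All 4 older brainstems lay above all 4 younger ones. The level rose by 0.82 (SE 0.10), or 1.76-fold, from 7.62 ± 0.07 to 8.44 ± 0.24 (SD, n = 4), with a limma adjusted p of 0.000485, the lowest of all genes tested, and of 0.000206 without the dim newborn array. The probe filed as GLT-1, for the same gene, gave no such rise, with a mean level of 6.75 at 130 d and 6.71 at 145 d (adjusted p = 0.941). That probe was near background, and was well above it on 3 of 4 and on 2 of 4 arrays. Fewer cells of a type and less RNA per cell cannot be told apart in whole brainstem, here or for any gene below.

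**Figure D1:**
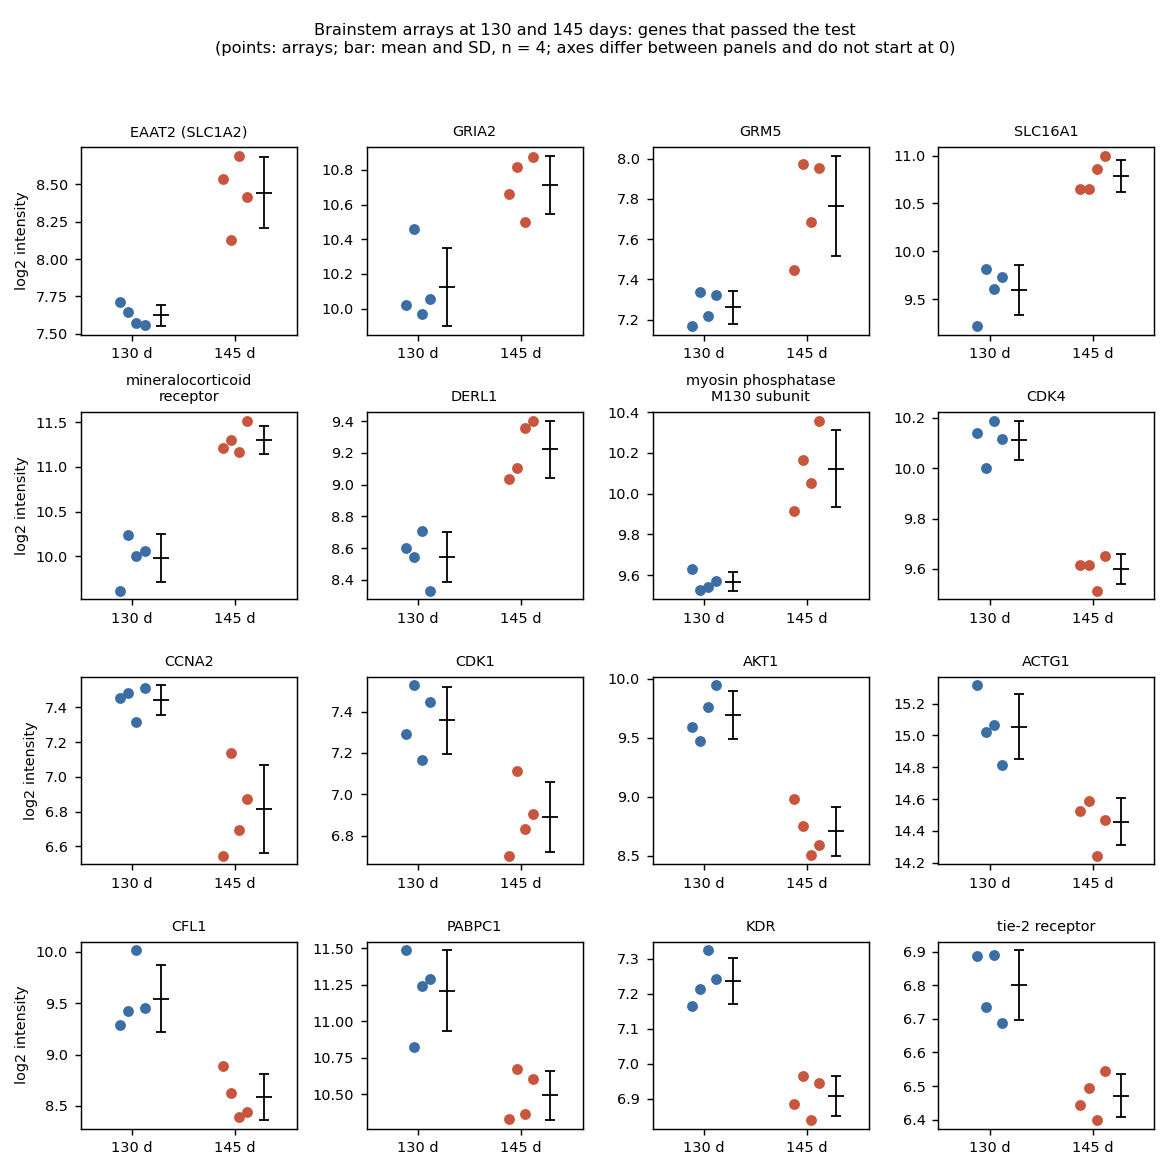
Normalized log2 level of the leading genes on each of the 8 brainstem arrays, with 130 d and 145 d side by side, where points are arrays and bars the mean with its SD (n = 4). EAAT2 rose from 7.62 to 8.44 and SLC16A1 from 9.59 to 10.79, while AKT1 and CDK4 fell, with no overlap between the ages.

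GRIA2 encodes the AMPA receptor subunit that limits calcium entry, and its levels were 10.02, 10.46, 9.97 and 10.06 at 130 d and 10.66, 10.81, 10.50 and 10.88 at 145 d. The lowest older array lay just above the highest younger one. It rose by 0.59 (SE 0.13), or 1.5-fold, with a limma adjusted p of 0.0307 (0.00913 without the dim newborn array). GRM5, a metabotropic receptor that couples to phospholipase C, had levels of 7.17, 7.34, 7.22 and 7.32 at 130 d and of 7.45, 7.97, 7.68 and 7.95 at 145 d. It rose by 0.50 (SE 0.12), or 1.42-fold, with a limma adjusted p of 0.0362 (0.0107). Of 20 gene names for glutamate receptors, transporters and their partners that were tested, these 3 rose and none fell. Over all genes 0.493% rose. The list was drawn up after values had been seen, and it holds GRIN1 also under its older name NR1. Of the 20, 16 were higher at 145 d, against 6418 of all 12771 genes. Their median difference was 0.11 against 0.00087 over all genes. Members that did not pass include the AMPA subunits GRIA1 (0.53, adjusted p = 0.221) and GRIA3 (0.32, adjusted p = 0.390) and the astrocyte transporter EAAT1 (0.11, adjusted p = 0.864).

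The neuron and synapse list moved in the same direction as GRIA2 and GRM5. Its 4 gene names tested were GRIA1, GRIN1, NR1 and the neurofilament gene LOC443014. NR1 is an older name of GRIN1, so that gene counts under 2 names, here and in the sum below. All 4 were higher at 145 d, with a median difference of 0.41, and none passed in either fit. An unadjusted p under 0.05 was reached by 2 of them, GRIA1 (0.53) and LOC443014 (0.64), and 3 of the 4 are also on the glutamate list. Their summed linear level was 1220 to 1624 at 130 d and 1606 to 2576 at 145 d. The part of this shift in the rise of GRIA2 and GRM5 was not tested. Outside this list, the 2 probes of the neuropeptide SST were lower at 145 d (-0.68 and -0.77), without passing in either fit.

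Among 13 astrocyte genes EAAT2 rose and none fell, and the median difference was 0.07. MT3 and GJA1 passed as well without the dim newborn array. MT3, the brain metallothionein that binds zinc and copper, differed by 0.58 (adjusted p = 0.0662 with all arrays, 0.00909 without that one). GJA1, the gap junction protein connexin 43, differed by 0.46 (0.176 and 0.0335), while a second name for it in the array files, CONNEXIN 43, differed by 0.22 and did not pass in either fit (0.855 and 0.373). GFAP, the astrocyte filament, differed by -0.20 (adjusted p = 0.847), and AQP4, the water channel of astrocyte endfeet, by 0.35 (adjusted p = 0.714). The astrocyte list as a whole thus had levels in both directions, with 7 members higher and 6 lower.

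The mineralocorticoid receptor binds aldosterone and, with high affinity, cortisol. Its 2 probes carry no symbol and are described as that receptor in the array files under LOC443144. Levels were 9.62, 10.24, 10.01 and 10.06 at 130 d and 11.21, 11.30, 11.17 and 11.52 at 145 d. The ages were separated by almost 1 unit. It rose by 1.32 (SE 0.21), or 2.49-fold, with a limma adjusted p of 0.00381 (0.00116 without the dim newborn array), and its probes rose by 1.41 and 1.22.

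Among 10 genes of the glucocorticoid response list this receptor alone rose and none fell with all arrays, and the median difference was 0.08. Leaving out the dim newborn array, 3 rose and 1 fell. NR3C1, the glucocorticoid receptor itself, differed by 0.37 (adjusted p = 0.145 with all arrays, 0.0151 without that one). NFKBIA, the inhibitor of NF-κB that glucocorticoids induce, differed by 0.96 (0.0518 and 0.00243), and GLUT-1, the glucose carrier of the blood-brain barrier, by -0.44 (0.209 and 0.032). The cortisol-handling enzymes did not pass in either fit, with differences of -0.42 for HSD11B1 (adjusted p = 0.406) and 0.10 for HSD11B2 (adjusted p = 0.935). Among 12 genes of steroid and thyroid signalling the mineralocorticoid receptor rose and none fell. NR3C1 and the estrogen receptor ESR1 also passed without the dim newborn array, the latter with a difference of 0.47 (0.0947 and 0.044).

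SLC16A1, monocarboxylate transporter 1, moves lactate and ketone bodies across membranes, including those of brain vessels. Its levels were 9.22, 9.81, 9.61 and 9.73 at 130 d and 10.65, 10.66, 10.85 and 10.997 at 145 d. No younger array reached the older ones. It rose by 1.20 (SE 0.20), or 2.29-fold, with a limma adjusted p of 0.0047 (0.00154 without the dim newborn array). This level comes from probe 2 alone, since probe 1 was too close to background to be kept and differed by -0.01.

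A pair of vessel endothelium receptors fell. KDR, the VEGF receptor that drives vessel sprouting, had levels of 7.17, 7.21, 7.32 and 7.24 at 130 d and of 6.89, 6.97, 6.84 and 6.94 at 145 d. It fell by 0.33 (SE 0.08), or 1.25-fold, with a limma adjusted p of 0.0494 (0.0115), and its 4 probes differed by -0.46, -0.45, -0.23 and -0.17. The probes at -0.23 and -0.17 share 40 bases and so are not 2 independent readings. The tie-2 receptor for angiopoietins, given in the array files as LOC443516, had levels of 6.89, 6.74, 6.89 and 6.69 at 130 d and of 6.44, 6.50, 6.40 and 6.55 at 145 d. It fell by 0.33 (SE 0.08), or 1.26-fold, with a limma adjusted p of 0.0494 (0.0107). It was well above background on 4 of 4 younger and on 1 of 4 older arrays, so the fall ran into the background. A separate probe filed as tie2 differed by 0.09 (adjusted p = 0.787).

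Of 24 endothelial and blood-brain barrier genes, 1 rose and 2 fell, and the median difference was -0.08. Over all genes 0.493% rose and 0.767% fell. Without the dim newborn array 1 rose and 5 fell, the added ones being GLUT-1, PECAM1 and PLAU. PECAM1, an adhesion molecule of endothelial junctions, differed by -0.49 (adjusted p = 0.221 with all arrays, 0.0125 without that one), and the urokinase gene PLAU by -0.46 (0.099 and 0.044). The summed linear level of the 24 genes was 13252 to 14864 at 130 d and 12840 to 15218 at 145 d, and so overlapped between the ages. Of 35 genes of oxygen sensing, vessel growth and glucose use, KDR and the tie-2 receptor fell and none rose. The fibroblast growth factor FGF2 (0.69, 0.07 and 0.0315) rose and the glycolytic enzyme PFK-L (-0.44, 0.176 and 0.0232) fell without the dim newborn array. HK1, the first enzyme of glucose use in brain, differed by 0.83 and did not pass in either fit (0.131 and 0.0556).

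**Figure D2:**
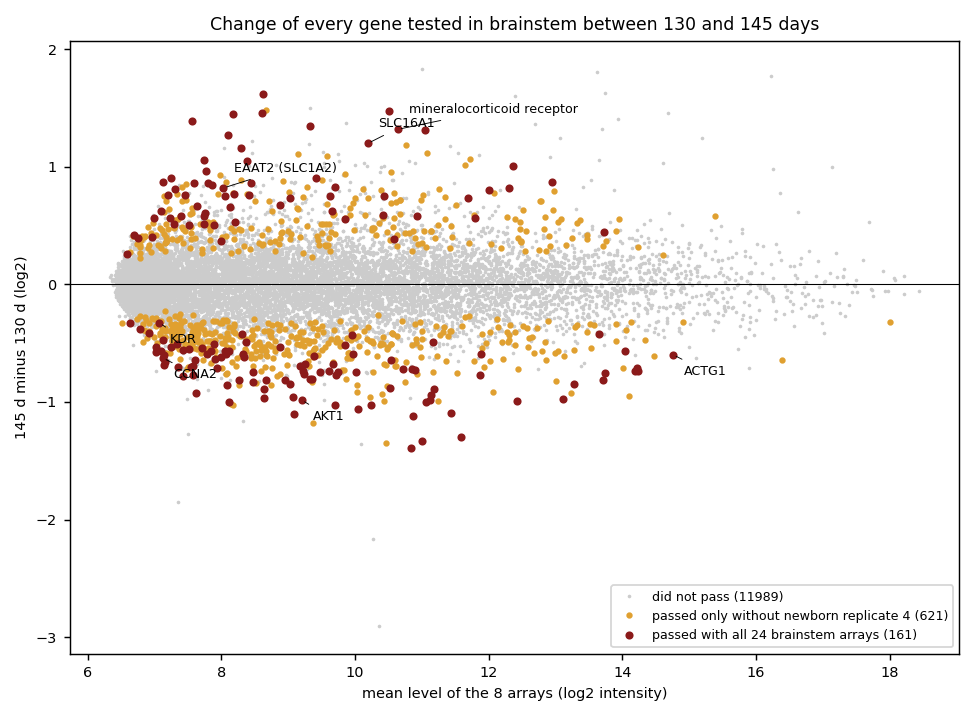
Difference between 145 d and 130 d of each of the 12771 genes (y axis, log2) against its mean level (x axis, log2), where dark red marks the 161 genes that passed with all 24 arrays, orange the 621 that passed only without the dim newborn array and grey the rest, and some genes are labelled. The 63 genes that rose and the 98 that fell spread over the range of levels, with sizes of 0.26 to 1.62.

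From the cell cycle, 3 genes fell. CDK4, the kinase that cyclin D engages in G1, had levels of 10.14, 10.003, 10.19 and 10.12 at 130 d and of 9.61, 9.62, 9.51 and 9.65 at 145 d. The values of each age spanned less than the gap between the ages. It fell by 0.51 (SE 0.10), or 1.43-fold, with a limma adjusted p of 0.0123 (0.00119 without the dim newborn array). CCNA2, cyclin A2 of S phase, had levels of 7.45, 7.48, 7.32 and 7.51 at 130 d and of 6.55, 7.14, 6.70 and 6.87 at 145 d. It fell by 0.63 (SE 0.14), or 1.54-fold, with a limma adjusted p of 0.0307 (0.00947), and it was well above background on 4 of 4 younger and on 2 of 4 older arrays. CDK1, the kinase of entry into mitosis, had levels of 7.29, 7.53, 7.17 and 7.45 at 130 d and of 6.70, 7.11, 6.83 and 6.90 at 145 d. It fell by 0.47 (SE 0.12), or 1.38-fold, with a limma adjusted p of 0.0494 (0.0186).

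Of 13 cell cycle genes, these 3 fell and none rose, where 0.767% of all genes fell. At 145 d 11 of the 13 were lower, against 6353 of all 12771 genes, and the median difference was -0.11. LMNB1 fell as well without the dim newborn array, a nuclear lamina gene with a difference of -0.42 (adjusted p = 0.157 with all arrays, 0.0113 without that one). TYMS, which makes thymidylate for DNA synthesis, differed by -0.43 (adjusted p = 0.298), and PCNA, the sliding clamp of DNA polymerase, by -0.10 (adjusted p = 0.815). The G1 cyclins CCND2 (0.11) and CCND3 (0.04) were on the other side of 0 and did not pass.

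AKT1, a kinase downstream of insulin and growth factor receptors, had levels of 9.59, 9.47, 9.76 and 9.95 at 130 d and of 8.98, 8.76, 8.51 and 8.60 at 145 d. It fell by 0.98 (SE 0.17), or 1.98-fold, with a limma adjusted p of 0.008 (0.00151 without the dim newborn array). Among 57 growth factors and their receptors none passed with all arrays, and without the dim newborn array 2 rose and 2 fell. Those that rose were FGF2 and the insulin-like growth factor IGF1 (0.51, 0.0743 and 0.0244). Those that fell were TGFB1, a cytokine that restrains proliferation in many cells (-0.53, 0.115 and 0.0285), and IGFBP4, a binding protein that holds back insulin-like growth factors (-0.53, 0.491 and 0.00233).

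From the actin skeleton 2 genes fell. CFL1, cofilin, severs actin filaments, and its levels were 9.29, 9.42, 10.02 and 9.45 at 130 d and 8.89, 8.63, 8.39 and 8.44 at 145 d. It fell by 0.96 (SE 0.24), or 1.94-fold, with a limma adjusted p of 0.0494 (0.0159). ACTG1, cytoplasmic gamma actin, had levels of 15.31, 15.02, 15.07 and 14.82 at 130 d and of 14.52, 14.58, 14.24 and 14.47 at 145 d. It fell by 0.60 (SE 0.12), or 1.51-fold, with a limma adjusted p of 0.0188 (0.0057). In both, every older array lay below every younger one.

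LOC443008, described in the array files as the M130 subunit that directs myosin phosphatase to myosin, went the other way. Its levels were 9.63, 9.53, 9.54 and 9.57 at 130 d and 9.92, 10.17, 10.05 and 10.36 at 145 d. It rose by 0.56 (SE 0.12), or 1.47-fold, with a limma adjusted p of 0.0218 (0.00327), while the probe named PPP1R12A, for the same subunit, differed by 0.27 (adjusted p = 0.343). Of 14 genes of actin and cell shape, a list drawn up after values had been seen, 1 rose and 2 fell. Over all genes 0.493% rose and 0.767% fell. In that list 11 were lower, against 6353 of all 12771 genes, and the median difference was -0.29. Without the dim newborn array 4 fell, among them the small GTPase ARF1 (-0.50, 0.126 and 0.0445).

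PABPC1 binds the poly(A) tail of messenger RNA, and its levels were 11.48, 10.82, 11.24 and 11.29 at 130 d and 10.33, 10.67, 10.37 and 10.60 at 145 d. It fell by 0.72 (SE 0.16), or 1.64-fold, with a limma adjusted p of 0.0335 (0.0114). DERL1, which helps move misfolded proteins out of the endoplasmic reticulum, had levels of 8.60, 8.54, 8.71 and 8.33 at 130 d and of 9.03, 9.10, 9.36 and 9.40 at 145 d. It rose by 0.68 (SE 0.16), or 1.6-fold, with a limma adjusted p of 0.043 (0.00433). Of 22 genes of ribosome and translation none passed with all arrays, 14 were lower, and without the dim newborn array 2 fell, the ribosomal protein RPL6 (-0.32, 0.218 and 0.049) and LOC100125610, described as elongation factor 1 alpha (-0.71, 0.0669 and 0.0322). The 3 probes filed as EEF1A1, the usual symbol of that factor, disagreed, with differences of -0.52, 1.08 and 1.22. Of 14 immediate early and heat shock genes none passed, and without the dim newborn array HSP90AA1 (-0.52, 0.105 and 0.0437) and JUND (-0.51, 0.121 and 0.0468) fell. The heat shock gene HSP70.1 differed by -0.77 and did not pass in either fit (0.138 and 0.0511).

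None of the tested genes of the oligodendrocyte and myelin list passed in either fit. Of 37 genes on that list 6 could be tested, and no probe could be given the name of a myelin protein from the tables used here, so those were not analysed. CX32, a gap junction protein of oligodendrocytes, had levels of 11.39, 10.54, 11.20 and 10.57 at 130 d and of 10.58, 10.45, 10.36 and 10.40 at 145 d, a difference of -0.48 (adjusted p = 0.427). CD9, a tetraspanin that the paper names in brainstem, differed by -0.43 (adjusted p = 0.502), and the iron carrier TF by 0.03. CD5, a lymphocyte receptor also named in the paper, differed by 0.41 (adjusted p = 0.314). The paper places both CD9 and CD5 in a brainstem module that rose with age, over its whole age range. From 80 to 120 d, before this interval, CD9 rose by 1.68 and CD5 by 0.61 (limma adjusted p = 8.94e-05 and 0.0238).

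**Figure D3:**
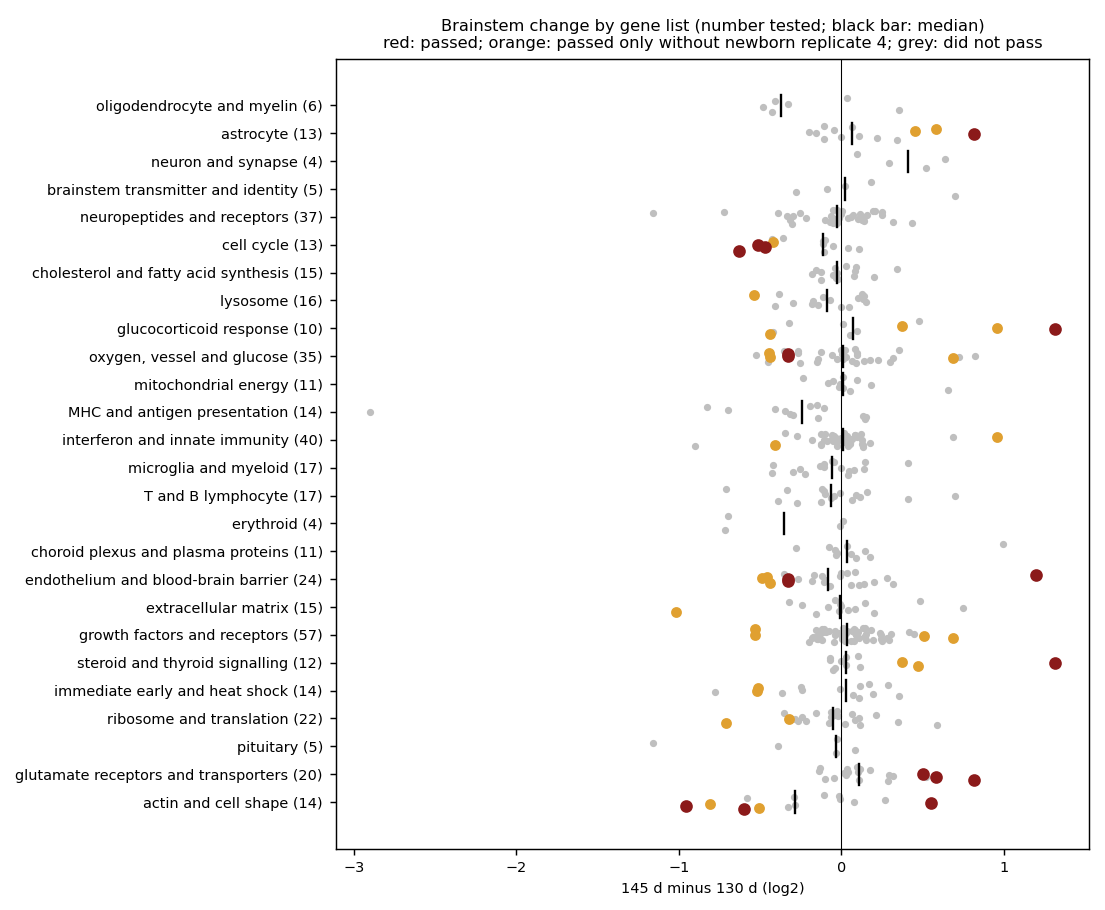
For each list of genes, the number of members tested and the difference between 145 d and 130 d of each member (log2, points), with a black bar at the median, red for members that passed, orange for those that passed only without the dim newborn array and grey for the rest. The cell cycle list had a median of -0.11 with 3 members that fell, and the glutamate list a median of 0.11 with 3 that rose.

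Immune genes did not pass with all arrays. None of 14 genes of antigen presentation, of 40 of interferon and innate immunity, of 17 of microglia or of 17 of T and B lymphocytes did so, and without the dim newborn array 1 interferon gene rose and 1 fell. Antigen presentation had 11 lower members, where 6353 of all 12771 genes were lower, and a median difference of -0.24. The summed linear level of the 17 microglial genes was 37460 to 43319 at 130 d and 31242 to 36890 at 145 d, and the ages did not overlap. That sum weighs bright members most, such as CD81 (-0.22, adjusted p = 0.568) and CD9, which is also on the oligodendrocyte list. By member, 7 of the 17 were higher and 10 lower with a median difference of -0.06, among them CD14 at 0.04 and ITGAM at -0.13. The part of this shift in the differences above was not tested. Lymphocyte genes summed to 2729 to 2957 and 2775 to 3172, so those levels overlapped.

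Lists of what a brainstem dissection could carry along did not pass either. The 4 erythroid genes, led by hemoglobin HBB, summed to 7686 to 28682 at 130 d and to 6281 to 13326 at 145 d, a wide and overlapping range. The probes of HBB disagreed, with differences of -1.56 (SE 0.37) and 0.17 (SE 0.69). The part of blood in the differences above was not tested. The 5 pituitary genes summed to 2606 to 3319 and 2212 to 3158. Among them PRL differed most, by -1.16, with levels of 7.58 to 10.07 at 130 d and 6.76 to 9.60 at 145 d, without passing. The choroid plexus and plasma protein genes numbered 11, and the 9 measured on every array summed to 203971 to 271721 and 222214 to 277452. TTR, the transthyretin of the choroid plexus, was measured on 3 of 4 younger arrays and differed by 1.00 without passing. None of 37 neuropeptides and receptors, 16 lysosomal, 15 cholesterol and fatty acid, 15 extracellular matrix or 11 mitochondrial genes passed with all arrays, and without the dim newborn array 1 lysosomal and 1 matrix gene fell. Those were the sphingolipid activator precursor PSAP (-0.54, 0.0669 and 0.0176) and the collagen COL2A1 (-1.02, 0.0965 and 0.0294). The genes named here beyond those that passed with all arrays were chosen after their values had been seen.

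The same genes were then followed at other ages, on brainstem arrays that gave no level to the comparison, although their spread entered its test and so helped set which genes passed. From 120 d to 1 d after birth, 130 of the 161 genes moved in the same direction, or 80.75%, against 61.84% of all genes. Of these, 58 passed in that interval with the same sign, and 2 genes passed with the opposite sign, where 1502 of the 12771 genes passed (11.76%). From 80 to 120 d, 126 of the 161 had the same sign (78.26% against 62.67% of all genes), 56 passed with it and 13 passed with the opposite sign, where 2450 of all genes passed (19.18%). CDK1 (-0.70) and CCNA2 (-1.03) had already fallen from 80 to 120 d, with limma adjusted p-values of 0.000166 and 2.54e-05. EAAT2 rose there by 0.38 (0.0072), and SLC16A1 by 1.11 (0.000394). The glutamate receptors ran the other way, without passing. GRIA2 differed by -0.25 from 80 to 120 d and by -0.27 from 120 d to 1 d after birth, and GRM5 by -0.03 and -0.11. GRIA2 averaged 10.73 at 80 d and 10.90 at 100 d, so that its mean of 10.71 at 145 d did not exceed the early ones.

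Several genes that were high at 145 d were lower 1 d after birth, in a comparison that shares the 145 d arrays. SLC16A1 averaged 8.36 at 80 d, 9.08 at 100 d, 9.47 at 120 d, 9.59 at 130 d, 10.79 at 145 d and 9.98 in newborns. From 145 d to birth it fell by 0.81 (SE 0.20, limma adjusted p = 0.0232), and by 0.87 without the dim newborn array (0.0233). The mineralocorticoid receptor LOC443144 fell by 0.93 (SE 0.21, limma adjusted p = 0.0157), and by 0.99 (0.0144) without that array. GRM5 fell by 0.52 (0.0157), and by 0.59 (0.00853) without it. GRIA2 fell by 0.50 (0.0328), but by 0.42 without that array, where it did not pass (0.0722). EAAT2 averaged 8.44 at 145 d and 8.40 in newborns, a difference of -0.05 (SE 0.10) that did not pass (adjusted p = 0.825).

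**Figure D4:**
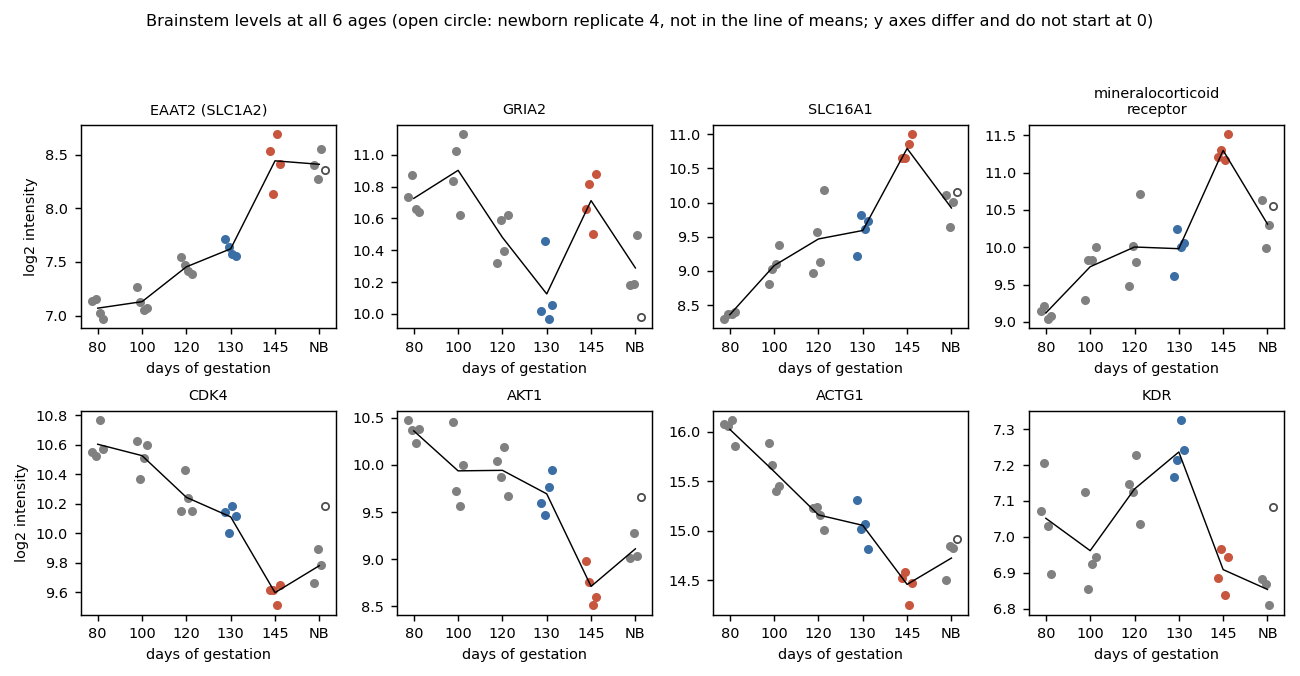
Normalized log2 level of leading genes (y axis) on each of the 24 brainstem arrays from 80 d of gestation to 1 d after birth (x axis), where points are arrays, the line joins the means and the open circle is the dim newborn array, which is left out of the line. The means of SLC16A1 and the mineralocorticoid receptor were highest at 145 d.

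Cortex and hypothalamus at the same ages were set beside brainstem, from the same fetuses, so that these arrays are not independent of the brainstem ones. Of the 161 genes, 150 had the same sign in cortex, or 93.2% against 67.1% of all genes, and 143 in hypothalamus, or 88.8% against 62.5%. With an unadjusted p under 0.05, 57 did so in cortex and 31 in hypothalamus, and none did so in the opposite direction. Over all genes 1177 of 12895 in cortex and 961 of 12928 in hypothalamus had such a p, in either direction. EAAT2 rose by 0.89 in cortex (SE 0.11, limma adjusted p = 0.00143) and differed by 0.79 in hypothalamus (adjusted p = 0.23). SLC16A1 differed by 0.42 in cortex and by 1.07 in hypothalamus, and LOC443144 by 0.37 and 0.65, without passing. AKT1 differed by -0.39 and -0.32. Hippocampus was not set beside them, and its change was not tested. EAAT2 averaged 8.96 there at 130 d (8.59 to 9.20) and 9.27 at 145 d (8.36 to 9.87), so that the ages overlapped.

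Whether the brainstem change differed from that in the other regions was tested directly. No gene passed among 13131 against cortex or among 13155 against hypothalamus in limma (0%), and 105 and 290 genes had an unadjusted p under 0.05. The lowest adjusted p-values were 1.00 in both. This fit took 1 spread from all 95 arrays and did not model the shared fetuses, which the labels do not mark. These p-values do not show that the regions changed alike. The difference of differences for LOC443144 against cortex was 0.95 (SE 0.74, where the change had an SE of 0.21 in brainstem and 0.28 in cortex), and for AKT1 -0.59 (SE 0.36). Cortex alone passed 22 of 12895 genes and hypothalamus 0 of 12928.

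**Figure D5:**
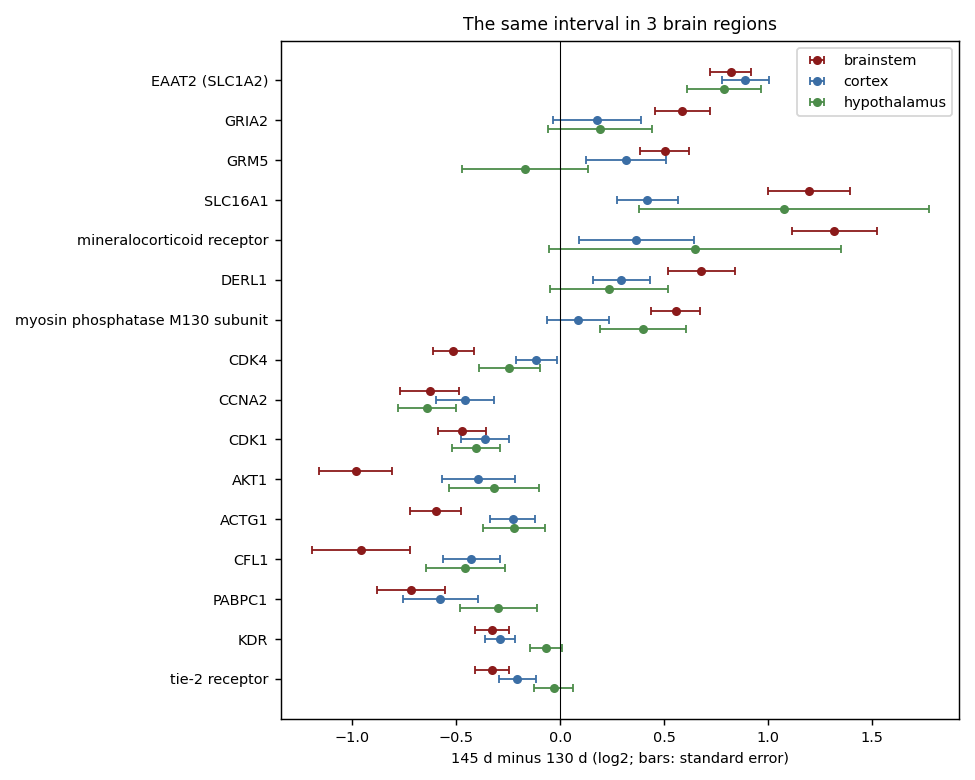
Difference between 145 d and 130 d (log2, with SE) of the leading genes in brainstem, cortex and hypothalamus, with 4 arrays per age and region. EAAT2 moved by 0.82, 0.89 and 0.79, while LOC443144 moved by 1.32 in brainstem and by 0.37 and 0.65 in the others, a gap that did not pass the test.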

How the data were processed

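RNA of whole brainstem was hybridized to 1-colour Agilent sheep arrays by the authors. The deposited array files hold the mean intensity and the local background intensity of each spot and a processed signal, made with Feature Extraction 10.1.1.1 per the file headers. The deposited series table holds the authors' normalized log2 values. The submitters' processing notes name limma, with no version. Genome builds and probe alignment are not given in the sources used here.

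From the files, background was corrected with normexp (offset 50), which narrows the changes of dim probes, and arrays were quantile normalized. Spots with an outlier mark and control spots were left out. Probes had to reach 1.1 times the upper level of the 77 negative controls (percentile 95) on 4 or more arrays, and probes of a gene were averaged. Of 15008 probes, 1556 had a symbol from the files or from the RefSeq gene table, 693 of them by accession, 125 by gene identifier, 502 by symbol, 26 by synonym and 210 by the file's own name. Array number limits the precision.

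All 24 brainstem arrays were fitted together in limma 3.58.1 (R 4.3.3, lmFit and eBayes), and 145 d was contrasted with 130 d. p-values were adjusted over all genes tested. The members, lists and tests were chosen with earlier results of these data known, and the gene lists are described by counts and medians. Genes with a symbol, or known by the file's description, that passed with all arrays were named, together with list members and the genes CD5 and CD9 of the paper. The fit was tested on simulated data with 12771 genes, where limma called 37% of the genes given a log2 change of 0.5 and 84% of those given 1, and 9.02% of calls fell on unchanged genes. Alternatives were another offset, scaling of the processed signal by percentile 75, the authors' log2 table, other normalization sets and filters, 1 or every probe per gene, the 8 arrays alone, blocks for slide and replicate number, a trended and robust eBayes, a stricter adjusted p (0.01) and leaving out each array. Leaving out the dim newborn array was added after the data were seen. The values of 1 list member are not reported here.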

Additional observations from a re-analysis of the deposited data

Results flagged for a closer look

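Of 164 groups of 4 arrays checked for genes in the text or its lists, 11 held an array that stood far from the other 3 by Dixon's criterion, and chance gives about 1 in 20 such groups. CD3D at 130 d was 7.166 in replicate 4 against 6.816 to 6.872 in the others. CD5 at 130 d was 8.026 in replicate 3 against 7.221 to 7.356. COL2A1 at 145 d was 8.229 in replicate 2 against 7.418 to 7.481. HK1 at 145 d was 10.93 in replicate 3 against 10.4 to 10.46. HOXA4 at 130 d was 7.672 in replicate 3 against 7.904 to 7.945. HOXA5 was 9.023 in replicate 1 at 130 d against 9.554 to 9.6, and 8.608 in replicate 3 at 145 d against 9.521 to 9.693. IGFBP4 at 130 d was 12.63 in replicate 1 against 12.92 to 12.95. JUND at 145 d was 9.203 in replicate 3 against 8.753 to 8.816. MT3 at 130 d was 14.75 in replicate 1 against 15.19 to 15.23. TF at 145 d was 17.14 in replicate 3 against 17.59 to 17.68.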

How the results depend on the processing

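None of the 161 genes changed sign under any of 21 other settings, but many of these could not change it. The 8 arrays alone, no dim newborn array, the trended and robust eBayes and the stricter adjusted p leave each difference as it was. Leaving out 1 array cannot turn the sign where the ages did not overlap, as for 154 of the 161. The number that passed was 553 with the processed signal scaled by percentile 75 (158 higher and 395 lower, or 28.6% higher against 39.1% in the report), 525 with the 8 arrays fitted alone (226 and 299), 35 at an adjusted p under 0.01 and 782 without the dim newborn array. Leaving out 1 of the 8 arrays gave 29 to 138, the fewest without replicate 3 of 145 d (29), replicate 3 of 130 d (54), replicate 1 of 130 d (55), replicate 4 of 145 d (67), replicate 1 of 145 d (94) and replicate 4 of 130 d (99). Without the dim newborn array as well, these fits gave 334 to 707. With the replicate block 147 genes passed, 123 of them among the 161, and the same numbers did not pair the arrays, since the deviations of arrays with the same number correlated by 0.0162, -0.092, 0.201 and 0.23. The slide as a block gave 240. EAAT2, SLC16A1, AKT1 and the mineralocorticoid receptor passed under all 21, CDK1 passed in 7 of 21 and the tie-2 receptor in 7 of 20, and the other 10 named genes in 9 to 18 of 21. No interaction with cortex or hypothalamus passed in the 12 other settings run for each, namely percentile scaling, both blocks, no dim newborn array and each of the 8 arrays left out. Signal near background limits CCNA2, the tie-2 receptor and GLT-1. The cause of these shifts was not tested.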
